A study of Astyanax mexicanus with 6 samples.

Results

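The expression of 9 enzymes of cholesterol synthesis was followed, in pathway order, through 6 RNA-seq libraries of liver-derived cell lines from Astyanax mexicanus. The enzymes were hmgcs1, hmgcra, mvk, mvda, idi1, fdps, fdft1, sqlea and lss. They were named for their place in the pathway and were chosen from values of these same libraries, in which sterol genes had been seen to differ from library to library. Their levels, their order across libraries and their difference between the lines are therefore given as a description, without a test. The deposited table has 27420 rows, and the 9 symbols take 10 of them, because mvk is listed under 2 gene identifiers. All 10 rows were among the 18489 genes tested, which reached 0.2 TPM in 1 library or more, and none of the 10 was under 1 TPM anywhere.

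SFL is a line from the liver of surface fish, the river form of the species, and CFL is a line from the liver of Pachón cavefish, and the fish of both forms were about 150 days old. According to the study's methods both lines were cloned by serial dilution, the cavefish were starved before dissection while the surface fish were not, and the medium of both held fetal bovine serum, trout serum, insulin and epidermal growth factor. In the first passages it also held an extract of embryos, from surface fish for SFL and from Pachón fish for CFL. The library names give passage 45 for SFL replicate 1, 46 for the other SFL libraries, 50 for CFL replicate 1 and 51 for the other CFL libraries. The 3 libraries of a line are not separate fish, and no source used here says whether those of the same passage number were separate cultures, so the spread between them may be partly technical. Line, passage number and founder fish cannot be told apart.

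Cholesterol is built from acetyl-CoA. The first enzymes of the route make mevalonate, the next turn it into isoprenoid units and join these into farnesyl diphosphate, and the last make squalene, close it into lanosterol and trim lanosterol to cholesterol. In vertebrate liver the genes of the route are known to be switched on together by the sterol regulatory element binding proteins when the membranes of the endoplasmic reticulum are low in sterol, and to be turned down when cells take up cholesterol from lipoproteins.

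Values are TPM, the estimated abundance of a gene's transcripts divided by their length and scaled to the same total in each library, so levels can be set side by side between genes. Depth cannot be read from TPM, and no counting error is therefore given. From 13254 to 13721 genes reached 1 TPM, depending on the library, and the share of the total in the 10 highest was 9.49% to 13.6%. Of 12 listed hepatocyte markers, 9 symbols were found in the table, 5 of them were under 1 TPM in all 6 libraries, and their summed TPM was 0.31 to 0.84 in CFL and 8.53 to 20.3 in SFL. Among these defining markers ttr, hnf4a and fabp10a were at or near 0 throughout, and tfa, the highest, reached 14.6 TPM in SFL and 0.26 TPM in CFL. Of 8 listed markers of biliary or simple epithelium, 7 symbols were found, in 8 rows, and they did not go 1 way. The keratin genes krt18a.1 and krt18b and a row of krt8 had at least 295 TPM in every library. They were higher in SFL, by log2 differences of 2.18, 2.28 and 2.52. The other krt8 row, epcam and sox9b were at or below 0.08 TPM throughout. hnf1bb had 163 to 210 TPM in CFL and 2.29 to 12.3 TPM in SFL. hnf1ba had at most 0.01 TPM in CFL and 8.35 to 35.9 TPM in SFL. In bulk RNA, fewer expressing cells and less RNA per cell cannot be told apart.

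hmgcs1 (ENSAMXG00000039120), the synthase that makes HMG-CoA, had 7.27, 18.03 and 41.8 TPM across CFL replicates 1, 2 and 3, and 125, 24.6 and 13.3 TPM across SFL replicates 1, 2 and 3. Values of the other genes follow in the same order. hmgcra (ENSAMXG00000007971), the HMG-CoA reductase that makes mevalonate and the target of statins in mammals, had 40.1, 128 and 212 TPM across CFL and 898, 276 and 218 TPM across SFL. In both genes CFL replicate 3 was the highest CFL library and SFL replicate 1 the highest SFL library. hmgcra was the single enzyme of the 9 whose lines did not overlap, and its lowest SFL value lay close above its highest CFL value, while libraries of the lines do not overlap in 53.0% of all tested genes.

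mvk, the mevalonate kinase, had 6.62, 11.5 and 25.6 TPM across CFL and 35.4, 10.7 and 5.03 TPM across SFL under ENSAMXG00000004399, the identifier used for it from here on. The second row, ENSAMXG00000038133, had 1.87, 4.98 and 12.2 TPM across CFL and 17.2, 6.60 and 2.90 TPM across SFL. The first row was 1.62 to 3.54 times the second in the 6 libraries, and how reads shared by the rows were divided is not known, so the level of mvk is uncertain, while both rows had the same order of libraries within each line. mvda (ENSAMXG00000003563), the decarboxylase that makes isopentenyl diphosphate, had 10.95, 18.9 and 47.1 TPM across CFL and 152, 26.3 and 12.7 TPM across SFL.

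idi1 (ENSAMXG00000034930), the isomerase that makes the second isoprenoid unit, had 25.0, 71.05 and 296 TPM across CFL and 414, 96.0 and 42.7 TPM across SFL. fdps (ENSAMXG00000033230) makes farnesyl diphosphate, where the branches to dolichol, ubiquinone and protein prenylation leave the route. It had 34.1, 98.6 and 416 TPM across CFL and 1208, 216 and 90.7 TPM across SFL, and the value in SFL replicate 1 was the highest of any of the 9 enzymes in any library.

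fdft1 (ENSAMXG00000033139), the squalene synthase and first step given over to sterols, had 21.2, 45.1 and 98.8 TPM across CFL and 329, 88.6 and 48.2 TPM across SFL. sqlea (ENSAMXG00000016393), the squalene epoxidase, had 5.09, 20.5 and 76.25 TPM across CFL and 216, 33.1 and 15.8 TPM across SFL. lss (ENSAMXG00000006084), which closes the sterol rings to give lanosterol, had 4.81, 16.1 and 60.2 TPM across CFL and 181, 19.6 and 6.51 TPM across SFL. In all 3 of these late enzymes the libraries of the lines interleaved, with SFL replicate 1 first and CFL replicate 3 next.

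**Figure D1:**
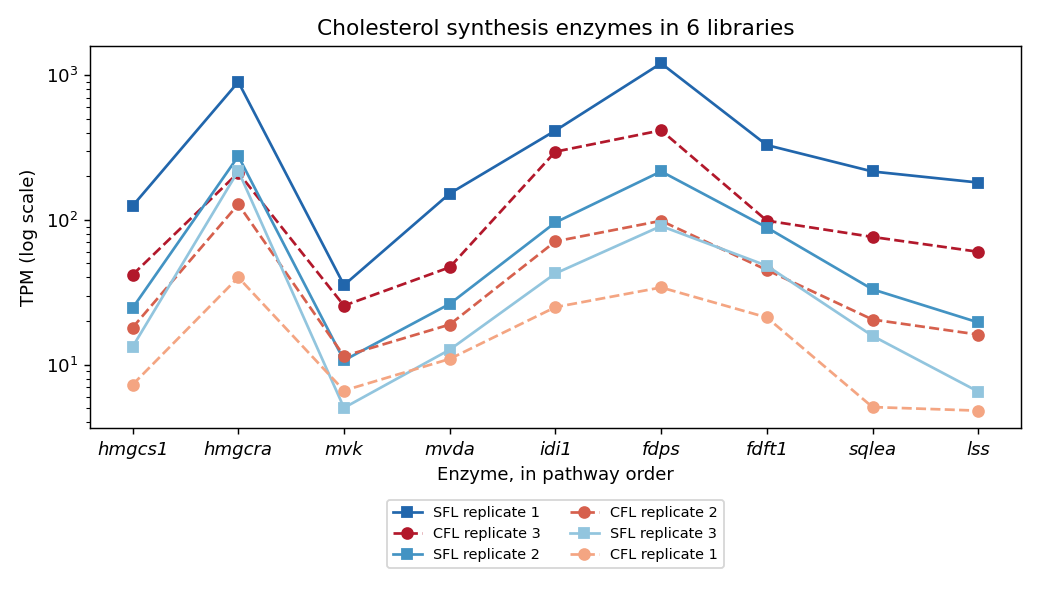
TPM on a log scale of the 9 enzymes in pathway order, with 1 line of points per library (squares and solid lines for SFL, circles and dashed lines for CFL). SFL replicate 1 lies on top at every step, CFL replicate 3 comes next at 8 of the 9 steps, and CFL replicate 1 is lowest at 8 of the 9.

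Summed over the 9 enzymes, the route made up 155, 428 and 1274 TPM across CFL and 3559, 791 and 453 TPM across SFL. The highest SFL library was thus 7.85 times the lowest in SFL, and the highest CFL library 8.21 times the lowest in CFL. Over both lines the highest library was 23.0 times the lowest, and the 9 enzymes took from 0.0155% of all TPM in CFL replicate 1 to 0.356% in SFL replicate 1. CFL replicate 3 was above SFL replicate 2 in 8 of the 9 enzymes.

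The enzymes followed the same order of libraries throughout. In 9 of 9 enzymes SFL replicate 1 was highest and SFL replicate 3 lowest with replicate 2 between them, an order that 13.3% of all tested genes share. In 9 of 9 enzymes CFL replicate 3 was highest and CFL replicate 1 lowest, an order that 18.8% of all tested genes share. Both orders together were present in 3.83% of tested genes, and both orders with at least a 2-fold difference between the ends in each line were present in 9 of the 9 enzymes and in 1.03% of tested genes. The counts of 9 were the same after median-ratio scaling, after quantile normalization and after dividing each library by its median ribosomal protein gene. Since the enzymes were chosen with this pattern known, the background shares describe how common the order is and are no test of it.

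**Figure D2:**
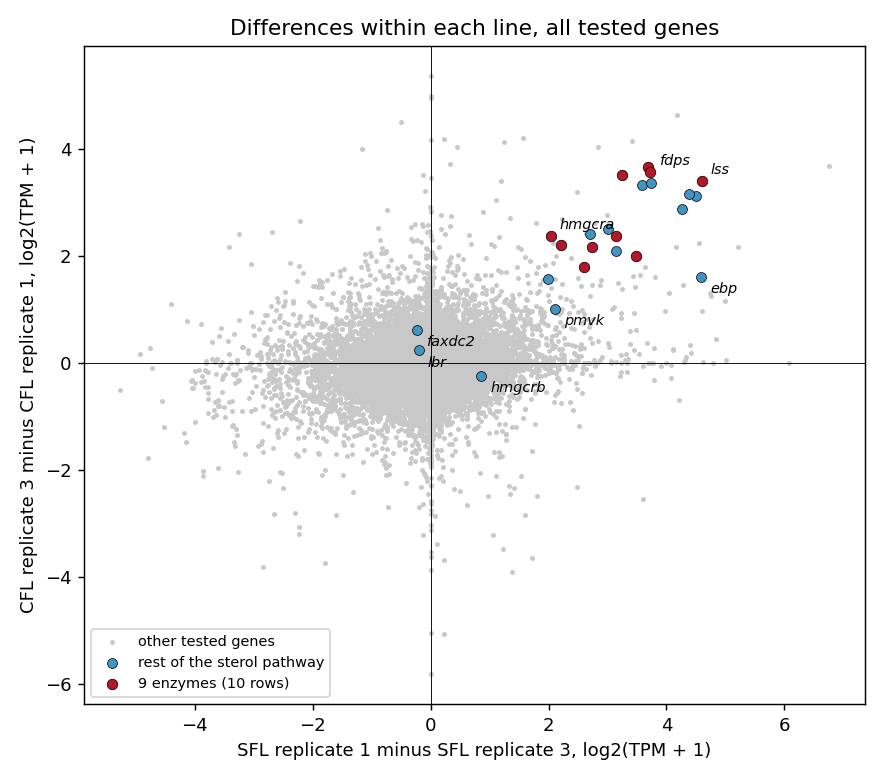
Each point is a tested gene, with SFL replicate 1 minus SFL replicate 3 on the x axis and CFL replicate 3 minus CFL replicate 1 on the y axis, both as differences of log2(TPM + 1). The 10 rows of the 9 enzymes (red) lie in the upper right corner with most of the remaining sterol pathway genes (blue), away from hmgcrb, lbr and faxdc2 near the origin.

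The distance between the highest and the lowest library was not equal along the route. In SFL it was 27.8-fold for lss, 13.7-fold for sqlea, 13.3-fold for fdps and 12.0-fold for mvda. The shortest SFL distances were 4.11-fold for hmgcra, 6.82-fold for fdft1 and 7.05-fold for mvk, and idi1 (9.71-fold) and hmgcs1 (9.42-fold) were in the middle. In CFL the longest distances were 14.98-fold for sqlea, 12.5-fold for lss, 12.2-fold for fdps and 11.9-fold for idi1. mvk (3.86-fold), mvda (4.30-fold), fdft1 (4.67-fold), hmgcra (5.29-fold) and hmgcs1 (5.74-fold) had the shorter ones. lss, sqlea and fdps were therefore among the 4 longest in both lines, while mvda was long in SFL and short in CFL. Across the 9 enzymes the distances in the lines had Spearman's rho of 0.72, a description over 9 genes from the same 6 libraries. Each fold compares single libraries and has no replicate error of its own.

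Most of the distance in SFL lay between replicate 1 and the other two libraries. SFL replicate 1 was 3.26-fold (hmgcra) to 9.26-fold (lss) above SFL replicate 2, and replicates 2 and 3 come from the same passage number. In CFL the step from replicate 2 to replicate 3, also of the same passage number, was 1.65-fold for hmgcra and between 2.19-fold (fdft1) and 4.22-fold (fdps) for the other 8 enzymes. Libraries of the same passage number thus differed by more than 2-fold in 8 of the 9 CFL enzymes. SFL replicates 2 and 3 differed as well, in proportion least for hmgcra (276 and 218 TPM) and most for lss (19.6 and 6.51 TPM).

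Against passage number the lines went opposite ways. The mean log2(TPM + 1) over the 9 enzymes was lower in the later SFL libraries by 2.27 and 3.25 than in the earlier library and higher in the later CFL libraries by 1.3 and 2.76 than in the earlier library. The median level of all tested genes in a library moved by 0.16 in SFL and 0.04 in CFL in the same comparison of the later libraries with the earlier. That is a shift of library medians, and it does not show how many single genes moved as far as the enzymes.

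The ranks of the steps were largely held while the total changed, and their shares were not. The 2 highest enzymes were hmgcra and fdps in 5 of the 6 libraries and fdps and idi1 in CFL replicate 3, and fdft1 held rank 3 or 4 in every library. With the mvk row used here, mvk was lowest in 5 of the 6 libraries, and lss was lowest in CFL replicate 1. The second mvk row was not added. It had 4.98 TPM in CFL replicate 2, beside 11.5 TPM for the first row and 16.1 TPM for lss. In SFL replicate 3 it had 2.90 TPM, beside 5.03 and 6.51 TPM. The rank and shares of mvk, and the highest-to-lowest ratios where mvk was lowest, therefore depend on the choice of row. Over the 15 pairs of libraries Spearman's rho of the 9 levels went from 0.70 to 1. hmgcra had the widest range of shares in percentage points, from 16.7% of the 9-enzyme total in CFL replicate 3 to 48.2% in SFL replicate 3. fdps took 20.0% to 33.9%, idi1 9.41% to 23.2% and hmgcs1 2.93% to 4.69%. The shares of mvk and lss varied more in proportion, from 0.996% to 4.27% for mvk and from 1.44% to 5.09% for lss. That of hmgcs1, also a low step, did not. Within a library the highest enzyme was 8.33 times the lowest in CFL replicate 1 and 43.4 times the lowest in SFL replicate 3, with the other libraries between them.

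With deviations taken from the mean of each line on the log2(TPM + 1) scale, every enzyme was compared with the mean of the other 8 over the 6 libraries. Pearson's r was lowest for hmgcra (0.962) and mvda (0.978) and highest for fdft1 (0.999). The slope against the other enzymes was 1.39 for lss, 1.25 for sqlea and 1.23 for fdps, and 0.70 for hmgcra and 0.71 for mvk. In the reference annotation of the surface fish all 9 symbols were found, and the closest pair on a chromosome had 376 genes between them.

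Between the lines, the mean over the 9 enzymes was 5.17 ± 1.38 (SD, n = 3) in CFL and 6.14 ± 1.67 (SD, n = 3) in SFL on the log2(TPM + 1) scale. The difference of 0.97 was smaller than the SD of either line. Per enzyme, the SFL minus CFL difference on this scale was 1.86 (SE 0.74) for hmgcra, 1.35 (SE 1.17) for fdps, 1.28 (SE 0.80) for fdft1 and 1.21 (SE 1.18) for sqlea. It was 0.92 (SE 0.90) for hmgcs1, 0.77 (SE 0.93) for mvda, 0.74 (SE 1.3) for lss, 0.55 (SE 1.08) for idi1 and 0.01 (SE 0.72) for mvk. These are limma's moderated SEs, in which the spread of a gene is drawn towards that of other genes. They can therefore understate the spread of genes that vary as much between libraries as these.

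The sign of the line difference rested on which libraries were set against each other. SFL was above CFL in 9 of 9 enzymes between the libraries numbered 1, in 8 of 9 between those numbered 2 and in 1 of 9, hmgcra, between those numbered 3. The largest of these ratios was 42.4 for sqlea between the libraries numbered 1, and the smallest was 0.108 for lss between those numbered 3. With the later passages alone, the mean difference over the 9 enzymes was -0.63, and without SFL replicate 1 it was 0.05.

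The remaining genes of the route were taken from a list of 19 symbols, of which 13 were found, in 14 rows, because cyp51 has 2. The order of libraries seen in the 9 enzymes was present in both lines in 11 of the 14 rows, each with at least a 2-fold difference between the ends. These 11 rows were acat2 at the entry to the route, pmvk, the kinase that acts after mvk, and the rows of cyp51, tm7sf2, msmo1, nsdhl, hsd17b7, ebp, sc5d and dhcr7, which trim lanosterol to cholesterol. cyp51 (ENSAMXG00000018398), the lanosterol demethylase, reached 994 TPM in SFL replicate 1 from 42.95 TPM in SFL replicate 3 and 154 TPM in CFL replicate 3 from 16.75 TPM in CFL replicate 1. msmo1 (ENSAMXG00000040310), a sterol methyl oxidase, had 26.1, 68.6 and 241 TPM across CFL and 373, 47.7 and 16.95 TPM across SFL.

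**Figure D3:**
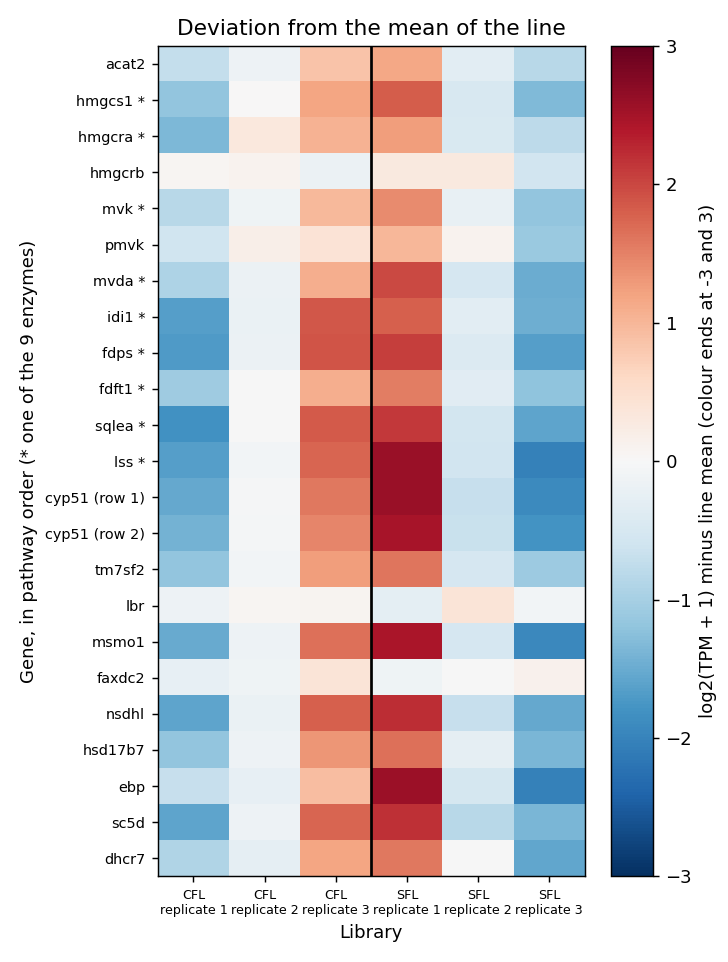
Colours give log2(TPM + 1) minus the mean of the line for each sterol pathway gene (rows, in pathway order, the 9 enzymes marked with a star) in each library (columns). CFL replicate 3 and SFL replicate 1 are red and CFL replicate 1 and SFL replicate 3 blue in nearly every row, and hmgcrb, lbr and faxdc2 stay pale.

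The rows outside that pattern were hmgcrb, lbr and faxdc2. hmgcrb (ENSAMXG00000016175), listed as a second HMG-CoA reductase gene, had 24.2, 25.1 and 20.4 TPM across CFL and 42.7, 42.9 and 23.1 TPM across SFL. The ratio of hmgcra to hmgcrb accordingly went from 1.66 in CFL replicate 1 to 21.0 in SFL replicate 1. lbr (ENSAMXG00000010198), a nuclear envelope protein that in mammals shares the sterol reductase step with tm7sf2, had 12.4, 14.6 and 14.8 TPM across CFL and 9.21, 15.3 and 10.75 TPM across SFL. tm7sf2 (ENSAMXG00000044043) went from 20.7 to 115 TPM among the CFL libraries and from 60.3 to 397 TPM among the SFL libraries.

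Between the lines, a gene was called by limma where its adjusted p was under 0.05 and the difference at least 2-fold, which 11.7% of all tested genes met towards SFL and 8.88% towards CFL. Of the 14 rows, 2 were called higher in SFL, ebp and faxdc2, a share near that background, and 0 were called higher in CFL, with the same 2 rows at an unadjusted p under 0.05. The median SFL minus CFL difference of the 14 rows was 0.80, beside 0.07 over all tested genes. This direction also rested on which libraries were set against each other. Between the libraries numbered 1, SFL was above CFL in every row but lbr. Between those numbered 3, SFL was above CFL in hmgcrb, ebp and faxdc2 alone, and the ratio was lowest for nsdhl, at 0.064. faxdc2 (ENSAMXG00000009298), of the fatty acid hydroxylase superfamily to which sc5d and msmo1 also belong, had 0.77, 0.90 and 1.71 TPM across CFL and 8.49, 9.29 and 10.2 TPM across SFL. The lines did not overlap, and its log2 difference was 2.30 (SE 0.22, limma adjusted p = 0.000528).

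ebp (ENSAMXG00000016057), the sterol isomerase, had 0.16, 0.57 and 2.55 TPM across CFL and 185, 20.8 and 6.74 TPM across SFL. It had the library order of the 9 enzymes and also lines that did not overlap, with a log2 difference of 4.08 (SE 1.11, limma adjusted p = 0.03). With a pseudocount of 0.1 the difference was 5.27 (limma adjusted p = 0.0193). The call was lost with the later passages alone (limma adjusted p = 0.0908), without the filter on low TPM (0.0507), without CFL replicate 1 (0.11), CFL replicate 2 (0.104) or CFL replicate 3 (0.0601), and without SFL replicate 2 (0.072), while the difference stayed between 2.46 and 4.55 in these fits.

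To set each gene of the route against the level of the 9 enzymes, it was divided by their geometric mean in the same library. ebp was at 0.0125 to 0.0270 of that mean in CFL and at 0.272 to 0.738 in SFL, a 24.3-fold gap between the geometric means of the lines. The CFL side of that gap rests on 0.16 to 2.55 TPM, with no known counting error, so its size is uncertain. hsd17b7 (0.0538 to 0.0909 in CFL, 0.156 to 0.189 in SFL) and the first cyp51 row (1.31 to 1.64 in CFL, 1.73 to 3.97 in SFL) were also higher in SFL on this scale without overlap. So was the second cyp51 row (0.947 to 1.01 in CFL, 1.24 to 2.42 in SFL). In the other direction were nsdhl (0.413 to 0.680 in CFL, 0.158 to 0.269 in SFL) and msmo1 (2.04 to 2.55 in CFL, 0.683 to 1.49 in SFL). Of the 9 enzymes themselves, mvk (0.271 to 0.517 in CFL, 0.141 to 0.210 in SFL) and idi1 (1.95 to 3.14 in CFL, 1.65 to 1.89 in SFL) did not overlap, and hmgcs1 kept within 0.442 to 0.567 in all 6 libraries. The second mvk row did overlap slightly. It had 12.2 TPM in CFL replicate 3, where the geometric mean of the enzymes was 94.4 TPM. In SFL replicate 2 it had 6.60 TPM beside a mean of 50.9 TPM. This scale was chosen after the values were seen and carries no test, and with 3 libraries against 3 an exact permutation test could not have given a two-sided p under 0.1. The share of all tested genes without overlap on this scale was not computed, and on plain TPM it was 53.0%. Genes whose slope against the other enzymes was not 1, such as mvk (0.71), also shift on this scale with the level of the library. In CFL the mvk ratio fell from 0.517 in replicate 1 to 0.271 in replicate 3.

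**Figure D4:**
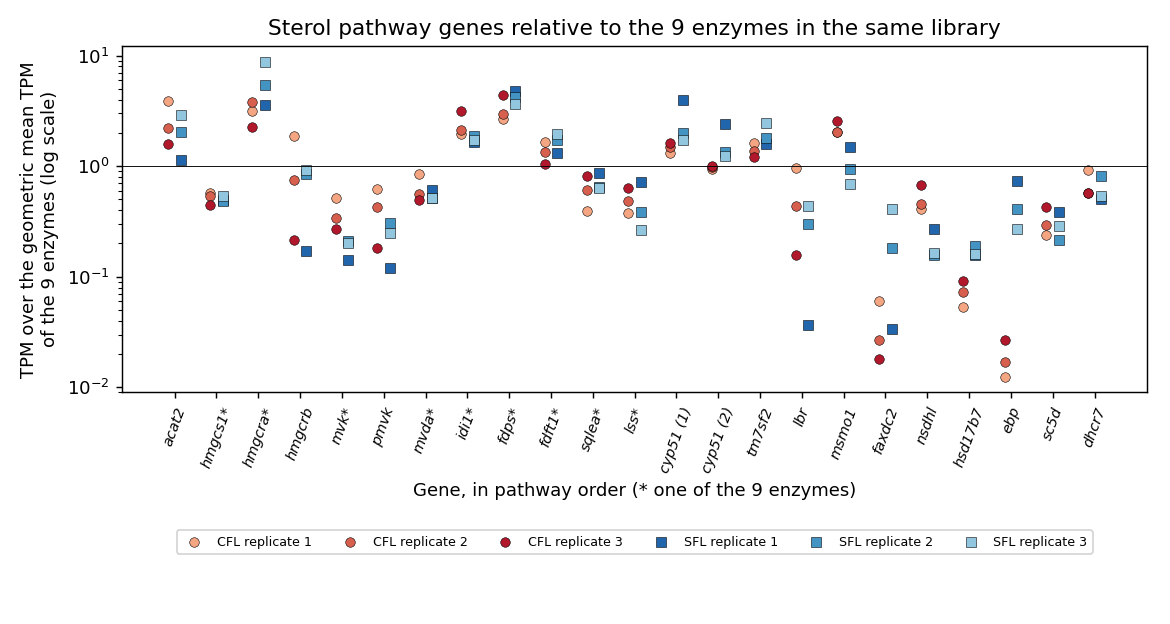
TPM of each sterol pathway gene over the geometric mean TPM of the 9 enzymes in the same library, on a log scale, with circles for CFL and squares for SFL libraries and a star after the 9 enzymes. ebp is the gene with the widest gap, at 0.0125 to 0.0270 in CFL and 0.272 to 0.738 in SFL, while hmgcs1 stays within 0.442 to 0.567 in all 6 libraries. The CFL points of ebp rest on 0.16 to 2.55 TPM.

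Genes around the route followed it in part. Of 15 tested rows of sterol sensing and uptake genes, 5 had the library order of the enzymes in both lines, beside 3.83% of all tested genes. With at least a 2-fold difference between the ends in each line the count was 2, beside 1.03% of all tested genes. NPC1L1 and 1 of the rows of stard4, 2 of the 15, were called higher in SFL, beside 11.7% of all tested genes. NPC1L1 (ENSAMXG00000009702), the sterol uptake protein of the cell surface, had 0.85, 3.95 and 4.42 TPM across CFL and 27.8, 65.9 and 96.6 TPM across SFL, with a log2 difference of 3.96 (SE 0.57, limma adjusted p = 0.00284). Its SFL libraries ran against the order of the enzymes. stard4 (ENSAMXG00000037985), a sterol carrier, had 8.82, 15.3 and 17.7 TPM across CFL and 37.6, 36.1 and 25.4 TPM across SFL, with a log2 difference of 1.22 (SE 0.29, limma adjusted p = 0.0192). That call was lost with the later passages alone (limma adjusted p = 0.107) and when replicate 1 or 2 of CFL or of SFL was left out (0.048 to 0.0635, the first with a fold change under 2). The other stard4 row (ENSAMXG00000039662) had 1.77, 1.61 and 2.86 TPM across CFL and 0.89, 1.43 and 7.23 TPM across SFL. Its log2 difference was 0.15 (SE 0.54, limma adjusted p = 0.851), and its SFL libraries also ran against the order of the enzymes. srebf2 (ENSAMXG00000008028), the sterol regulatory element binding protein most tied to cholesterol genes, had 29.7, 47.65 and 70.5 TPM across CFL and 61.4, 32.8 and 27.8 TPM across SFL, with narrower ranges in each line than any of the 9 enzymes had, and ldlrb, an LDL receptor gene, had 144, 260 and 308 TPM across CFL and 467, 303 and 269 TPM across SFL. Both were named after their values were seen. Of the same list insig1 and npc1 also had both orders. scap and mbtps2 ran against the order of the enzymes in SFL, and mbtps1 and insig2 had neither order. By limma scap and lpin1 missed the call on the 2-fold rule alone (log2 differences 0.94 and 0.27, limma adjusted p = 0.0188 and 0.0331). These genes too were named after their values were seen.

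The side branches, which carry isoprenoids to dolichol, ubiquinone and prenylated proteins, did not share the order as a group. Of their 12 genes 1 had both orders, nus1, a subunit of the dolichol synthase, beside 3.83% of all tested genes. By limma 0 of the 12 were called in either direction, beside 11.7% called higher in SFL and 8.88% higher in CFL. Without the 2-fold rule limma called 3610 of the 18489 tested genes towards SFL and 2808 towards CFL. The 4 of the 12 with an unadjusted p under 0.05 also had an adjusted p under 0.05, a share near that background. They missed the call on the 2-fold rule alone. They were icmt and coq2, higher in SFL (log2 differences 0.86 and 0.96, limma adjusted p = 0.0109 and 0.0212), and ggps1 and pggt1b, higher in CFL (-0.74 and -0.75, limma adjusted p = 0.0165 and 0.0401), and they were named after their values were seen. Of 13 tested fatty acid synthesis genes, 4 had both orders, 5 were called higher in SFL and 1 higher in CFL, beside 3.83%, 11.7% and 8.88% of all tested genes. Both orders with at least a 2-fold difference between the ends in each line were present in 1 of the 13, beside 1.03% of all tested genes. me1, the malic enzyme that supplies reducing power, had 3.39, 6.10 and 0.30 TPM across CFL and 313, 469 and 139 TPM across SFL, with a log2 difference of 6.32 (SE 0.70, limma adjusted p = 0.000982). fads2, a fatty acid desaturase, had 12.7, 33.9 and 24.0 TPM across CFL and 608, 281 and 284 TPM across SFL, with a log2 difference of 4.0 (SE 0.44, limma adjusted p = 0.000911). acacb, an acetyl-CoA carboxylase gene (log2 difference 2.15, SE 0.24, limma adjusted p = 0.000969), and elovl5, a fatty acid elongase gene (2.02, SE 0.31, limma adjusted p = 0.00354), came next, and fasn, the fatty acid synthase, was the fifth. The libraries of the lines did not overlap in 9 of the 13 genes, me1 and fads2 among them, beside 53.0% of all tested genes. scdb, a stearoyl-CoA desaturase gene and the single gene of the list called in that direction, was higher in CFL, by a log2 difference of -1.34 (SE 0.29, limma adjusted p = 0.0135, and 0.0577 without CFL replicate 2).

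A list of genes of sterol export, storage and their control went partly the reverse way, and its storage gene soat1 did not. Of 8 tested rows, 3 had the exact reverse order in both lines, which 7.50% of all tested genes share, and 1 had the order of the enzymes. The 3 were abca1a, nr1h3 and mylipa. The 1 was a row of soat1 (ENSAMXG00000039298), with 0.01, 0.24 and 0.25 TPM across CFL and 3.72, 0.59 and 0.43 TPM across SFL. The other soat1 row had the SFL order alone. abca1a (ENSAMXG00000007051), the cholesterol efflux pump, had 11.9, 9.16 and 6.50 TPM across CFL and 1.81, 2.98 and 16.1 TPM across SFL, so it was highest where the enzymes were lowest in each line. mylipa, which in mammals marks the LDL receptor for breakdown, had 4.51, 3.78 and 3.61 TPM across CFL and 1.5, 2.78 and 12.5 TPM across SFL. abca1a, mylipa, nr1h3 and soat1 were named after their values were seen, and none of them was called between the lines by limma. ch25h, a cholesterol hydroxylase gene, was the single row of the 8 that was called, a share near the 11.7% of all tested genes called higher in SFL. Its log2 difference was 1.12 (SE 0.23, limma adjusted p = 0.0105). The call was lost with the later passages alone (limma adjusted p = 0.111) and without CFL replicate 3, where the fold change fell under 2.

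Marker lists of other cell types and states were set beside the library order. The summed TPM of 8 fibroblast and stellate cell markers, mostly the collagens col1a1a and col1a2, was 1266, 1269 and 658 in CFL and 338, 825 and 1422 in SFL. Of its 7 tested rows, 4 had the exact reverse order of the enzymes in both lines, which 7.50% of all tested genes share. Of these 7 rows 2 were called higher in SFL, col1a1a and lrata, which was at 0 in every CFL library, and 2 higher in CFL, pdgfra and pdgfrb. Among all tested genes 11.7% were called higher in SFL and 8.88% higher in CFL. Summed early response and stress genes (1179, 1858 and 1534 TPM in CFL, 1176, 789 and 1286 TPM in SFL) and cell cycle genes (530, 529 and 530 TPM in CFL, 375, 739 and 344 TPM in SFL) had neither order. Neither did summed epithelium markers (1662, 1633 and 1358 TPM in CFL, 6773, 6269 and 8212 TPM in SFL). Summed endothelial markers (52.4, 63.9 and 71.3 TPM in CFL, 79.1, 75.8 and 89.1 TPM in SFL), nearly all kdrl, had the CFL order alone. So did blood markers, at most 1.41 TPM in sum. The part of any of these in the enzyme levels was not tested.

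By likeness of their deviations to the mean of the 9 enzymes, 3073 genes with a mean of at least 5 TPM and a span of at least 1 on the log2 scale were ranked over the 6 libraries. Of the 10 genes with a symbol that came first, 5 belong to the listed rest of the route (hsd17b7, tm7sf2, msmo1, nsdhl and acat2, Pearson's r from 0.995 to 0.998). Also among the 10 were rdh12, a retinol dehydrogenase gene (0.999), ENSAMXG00000032761, listed under a clone name (0.999), pla2g4aa, a cytosolic phospholipase gene (0.997), and cds1, a synthase of phospholipid precursors (0.995). rdh12 (ENSAMXG00000021155) had 5.47, 12.8 and 33.9 TPM across CFL and 52.7, 13.65 and 7.60 TPM across SFL. With 6 libraries and means taken out by line, r of 0.95 or more was reached by 2.31% of the ranked genes, so the ranking is a description of these libraries. That share takes in the 9 enzymes, which make up the mean and were left out of the 10 named, and genes of the rest of the route.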

How the data were processed

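Polyadenylated RNA from 3 SFL and 3 CFL libraries had been sequenced as stranded single reads of 75 bases. The study's methods on RNA extraction name liver and muscle tissue. Its results describe bulk RNA-seq of the cell lines with 3 replicates, and the library names give cell lines and passages. The authors aligned reads with STAR 2.7.3a, per the submitters' processing notes, and estimated TPM with RSEM on Ensembl gene models. The genome assembly is not given in the sources used here. The deposited table holds TPM for 27420 genes and no counts, so how RSEM divided reads between duplicated rows, and each library's depth, are unknown.

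Genes reaching 0.2 TPM in 1 library or more were fitted as log2(TPM + 1) with limma 3.58.1 (R 4.3.3, trended moderation, SFL against CFL, no covariate), a scale that understates changes of low genes. Calls needed a Benjamini-Hochberg adjusted p under 0.05 together with at least a 2-fold difference. Every SE given is limma's moderated SE. The script was tested on simulated data. p-values measure only the spread between libraries of a line, which may be technical.

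The 9 enzymes and all gene lists were chosen with earlier results of these data known. Named are the enzymes, the rest of the route, up to 4 called genes of each related list by size of difference (fasn, scdb and others said to be so were added after their values were seen), and the 10 genes with a symbol most like the enzymes, of which 1 is not reported here. For mvk the row with the higher mean TPM was used. Gene order came from the AstMex3_surface RefSeq annotation, used for names and neighbours alone. No source used here says whether replicate numbers pair the libraries, and the main fit did not pair them.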

Additional observations from a re-analysis of the deposited data

Results flagged for a closer look

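The mean log2(TPM + 1) of the 9 enzymes was lower at the later passage number than at the earlier in SFL, by 2.76, and higher in CFL, by 2.03, so the change with passage differed between the lines by -4.79. Each later library of a line moved the same way, in SFL by -3.25 and -2.27 and in CFL by 1.3 and 2.76. The earlier passage is a single library in each line, the difference was not tested, and culture and passage cannot be told apart.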

How the results depend on the processing

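The mean difference over the enzymes was -0.63 with the later passages alone, 0.87 with median-ratio scaling, 0.81 with quantile normalization and 0.05 to 1.67 when each library was left out in turn, the lowest without SFL replicate 1 and 0.29 without CFL replicate 1. With the later passages alone 8 of the 9 differences were below 0, from -0.03 for fdft1 to -1.38 for lss, and hmgcra was at 0.57. When libraries were left out, 4 enzymes changed sign, lss from -0.56 to 1.75, idi1 from -0.34 to 1.48, mvda from -0.22 to 1.52 and mvk from -0.70 to 0.60. The count of other route genes higher in SFL was 1 in place of 2 with the later passages alone and without the filter on low TPM, and 1 to 2 when libraries were left out, with ebp the gene lost.

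Without the fold threshold, limma called 3610 of all tested genes towards SFL and 2808 towards CFL, and the calls towards CFL were 2492 with a pseudocount of 0.1 and 1012 with the later passages alone. Leaving out each library gave 1668 to 2212 higher in SFL and 1242 to 1713 higher in CFL. The share higher in SFL shifted with scaling, to 1930 against 1848 genes with median-ratio scaling and 1851 against 1916 with quantile normalization. Libraries of the same number did not deviate together (r of -0.225, 0.0780 and -0.0743 for numbers 1, 2 and 3 over 18489 genes). With a replicate block the calls were 2122 towards SFL and 1634 towards CFL, and 2 of the other route genes were called (ebp at a limma adjusted p of 0.0494). ENSAMXG00000032761 lost its call there (limma adjusted p = 0.0551, from 0.0207). It also lost the call with the later passages alone (limma adjusted p = 0.112), without CFL replicate 1 (0.0786) or 2 (0.0784), and without SFL replicate 2 (0.056).

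By Spearman's rho 50 genes tied as most like the enzymes, with 6 of the 10 named genes among them. With both mvk rows summed, a choice made after the data were seen, the log2 difference of mvk was 0.15 in place of 0.01. TPM without counts sets no limit of detection for low genes such as ebp in CFL.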
